A study of Mus musculus with 8 samples.

Results

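Ehf, a transcription factor of epithelia, was described here together with 9 other regulators of epithelial identity (Elf3, Grhl1, Grhl2, Ovol1, Ovol2, Esrp1, Esrp2, Klf5 and Tox3) in cultured mouse kidney cells with and without Aldh2. The genes were picked by symbol, and 8 of the 10 have a row among the 14145 genes of the table; Grhl1 and Ovol1 are not among the genes analysed here. The list was drawn up with the KO against WT contrast of these libraries already known, so the levels of the 8 genes are given as a description, without a test. The cells were primary tubular epithelial cells (TECs) from Aldh2TEC-KO mice, named for a knockout of Aldh2 in TECs (4 libraries, KO 1 to 4) and from control mice (Aldh2Ctrl; 4 libraries, WT 1 to 4), isolated from kidney, grown in serum-containing medium and left untreated. Aldh2 encodes the mitochondrial enzyme that oxidises acetaldehyde and other aldehydes. The promoter that drove the deletion, the strain, the age and whether each library came from its own animal are not given in the labels, and the genotype field names a different ALDH gene in each of the 4 KO samples, so groups follow the sample titles. Any p-value below thus reflects variation among libraries, and some of that variation may be technical.

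Epithelial cells keep their junctions and polarity through a small circuit of transcription factors. Grainyhead-like factors such as Grhl2 activate junction genes, Ovol factors repress the mesenchymal program driven by Zeb and Snail proteins, and Esrp proteins hold many transcripts in their epithelial splice forms. Ehf and Elf3 are ETS factors restricted largely to epithelia, and in the kidney this circuit is known above all from the collecting duct and distal nephron.

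Values are FPKM, reads or fragments scaled to gene length and library depth, with 17890000 to 18750000 reads or fragments per KO library and 17050000 to 17750000 per WT library. Aldh2 stood at 0.88 to 1.64 FPKM in KO and 23.69 to 31.08 FPKM in WT, in the direction of the labels. The cells carried epithelial transcripts in every library, with Krt8, a simple-epithelium keratin, at 266.88 to 3553.02 FPKM in KO and 469.01 to 1459.87 FPKM in WT. Several defining segment markers (Slc34a1, Umod, Slc12a1, Slc12a3 and Aqp2) are not among the genes analysed here. By Xist and Y-linked transcripts KO 1 and 2 were female and the other 6 libraries male, and summed mitochondrially encoded transcripts were 16638, 15492, 4236 and 5033 FPKM in KO 1 to 4 against 11690 to 21741 FPKM in WT. Macrophage markers summed over 13 genes to 231 to 1750 FPKM in KO and, in WT 1 to 4, to 1060, 95.2, 110 and 120 FPKM; fibroblast markers summed over 6 genes to 25.7 to 40.9 FPKM in KO and to 463, 61.8, 73.4 and 40.8 FPKM in WT 1 to 4. WT 1 therefore stood apart from the other WT libraries in both lists, and the part of these differences in the values below was not tested.

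Ehf (ENSMUSG00000012350, GRCm38 chr2:103263433-103303278, minus strand) had 1.15, 1.54, 1.74 and 1.65 FPKM in KO 1 to 4, against 6.77, 9.30, 7.31 and 10.90 FPKM in WT 1 to 4. All 4 KO libraries lay close together and far below the lowest WT library. The KO mean was 1.52 ± 0.26 FPKM and the WT mean 8.57 ± 1.90 FPKM (SD, n = 4 each), so KO held 17.7% of the WT level, a log2 difference of -1.91 (SE 0.19) on the log2(FPKM + 1) scale. Recovered from the FPKM and gene length, these levels stand for 118 to 182 reads per KO library and 652 to 1054 per WT library. At low levels the added 1 FPKM makes the log2 differences understate the ratio, here and below. With 0.1 FPKM added instead, that of Ehf was -2.41. In bulk RNA, fewer cells that express a gene and less of its RNA per cell cannot be told apart, which holds for all genes below.

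Elf3 (ENSMUSG00000003051, chr1:135253575-135258568), the closest relative of Ehf measured here, had overlapping groups. Its levels were 4.12, 14.60, 21.19 and 25.39 FPKM in KO 1 to 4, and 15.36, 27.52, 24.74 and 41.26 FPKM in WT 1 to 4. KO 1 was far below all other libraries, and KO 3 and 4 were within the WT range. Elf3 averaged 16.3 ± 9.27 FPKM in KO and 27.2 ± 10.7 FPKM in WT (SD, n = 4 each; log2 difference -0.86, SE 0.49). It was the most abundant of the 8 genes in each group, and the level of Ehf per unit of Elf3 was 0.279, 0.106, 0.0821 and 0.0650 in KO 1 to 4 against 0.264 to 0.441 in WT. Only KO 1, where Elf3 itself was lowest, reached the WT range of that ratio.

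Tox3 (ENSMUSG00000043668, chr8:90247040-90348343), a high-mobility-group box protein, was also lower in every KO library than in any WT library. It had 0.31, 0.60, 0.37 and 0.44 FPKM in KO 1 to 4, and 2.42, 3.02, 2.33 and 2.27 FPKM in WT 1 to 4. The KO mean of 0.429 ± 0.127 FPKM was 17.1% of the WT mean of 2.51 ± 0.348 FPKM (SD, n = 4 each). These are low levels, 19 to 36 reads per KO library against 132 to 173 per WT library, and the log2 difference of -1.30 (SE 0.16) on the log2(FPKM + 1) scale understates the ratio. The table lists genes whose higher group mean is at least 0.5 FPKM; Tox3 passes that level through WT alone, whereas the other 7 listed genes pass it in each group. Its ubiquitous relative Tox4 was at 14.2 ± 1.93 FPKM in KO and 15.6 ± 0.806 FPKM in WT, a log2 difference of -0.13 (SE 0.16).

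Grhl2 (ENSMUSG00000022286, chr15:37233036-37363569), an activator of E-cadherin and claudin genes in other epithelia, had 1.28, 1.32, 3.57 and 2.32 FPKM in KO 1 to 4, and 5.67, 8.10, 7.44 and 4.77 FPKM in WT 1 to 4. The groups did not overlap, and KO 3 came nearest to WT 4. The means were 2.12 ± 1.08 FPKM in KO and 6.50 ± 1.54 FPKM in WT (SD, n = 4 each; log2 difference -1.30, SE 0.27). Klf5 (ENSMUSG00000005148, chr14:99298691-99315036), a Krüppel-like factor of proliferating epithelia, had 7.48, 8.02, 8.15 and 6.92 FPKM in KO 1 to 4, and 9.98, 15.20, 14.46 and 14.26 FPKM in WT 1 to 4. Its KO libraries were the most alike of any of the 8 genes relative to their mean, 7.64 ± 0.563 FPKM against 13.5 ± 2.37 FPKM in WT (SD, n = 4 each; log2 difference -0.73, SE 0.17), and the groups did not overlap.

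The splicing regulators and Ovol2 overlapped between the groups. Esrp1 (ENSMUSG00000040728, chr4:11331933-11386783) had 6.59, 3.01, 14.76 and 7.33 FPKM in KO 1 to 4, and 12.09, 18.26, 18.76 and 9.65 FPKM in WT 1 to 4. KO 3 lay above WT 1 and WT 4, and the means were 7.92 ± 4.93 FPKM in KO and 14.7 ± 4.53 FPKM in WT (SD, n = 4 each; log2 difference -0.93, SE 0.39). Esrp2 (ENSMUSG00000084128, chr8:106130319-106136974) had 3.97, 7.04, 13.19 and 9.91 FPKM in KO 1 to 4, and 9.18, 13.21, 13.68 and 13.69 FPKM in WT 1 to 4. Here KO 3 and 4 lay within the WT range, and KO 1 and 2 below it (log2 difference -0.58, SE 0.31). The ratio of Esrp1 to Esrp2 was 1.66, 0.428, 1.12 and 0.739 in KO 1 to 4, and 1.32, 1.38, 1.37 and 0.705 in WT 1 to 4, so it varied within each group by more than the means of 0.987 in KO and 1.19 in WT differed. Whole-gene FPKM do not show the splice forms that these proteins control. Ovol2 (ENSMUSG00000037279, chr2:144305175-144332146), a zinc-finger repressor of Zeb1 in other epithelia, was the scarcest in WT, at 0.54, 0.34, 1.16 and 0.73 FPKM in KO 1 to 4 and 0.93, 1.36, 1.31 and 0.96 FPKM in WT 1 to 4. Its 13 to 46 reads per KO library and 34 to 49 per WT library leave wide counting error, and KO 3 lay within the WT range (log2 difference -0.35, SE 0.19). With 0.1 FPKM added instead of 1, the log2 difference of Ovol2 was -0.73.

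By mean level, which FPKM allow between genes since they are per length, the order was Elf3, Esrp2, Esrp1, Klf5, Grhl2, Ehf, Ovol2 and Tox3 in KO, and Elf3, Esrp1, Klf5, Esrp2, Ehf, Grhl2, Tox3 and Ovol2 in WT. Most neighbours in these orders had overlapping ranges over the 4 libraries, so their order was within the spread. The exceptions were Klf5 above Grhl2 in KO, and Grhl2 above Tox3 and Tox3 above Ovol2 in WT, whose ranges did not overlap. Ehf stood at percentile 22.5 of all genes by mean level in KO and 59.3 in WT, whereas Elf3 stood at 75.7 in KO and 86.1 in WT.

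**Figure D1:**
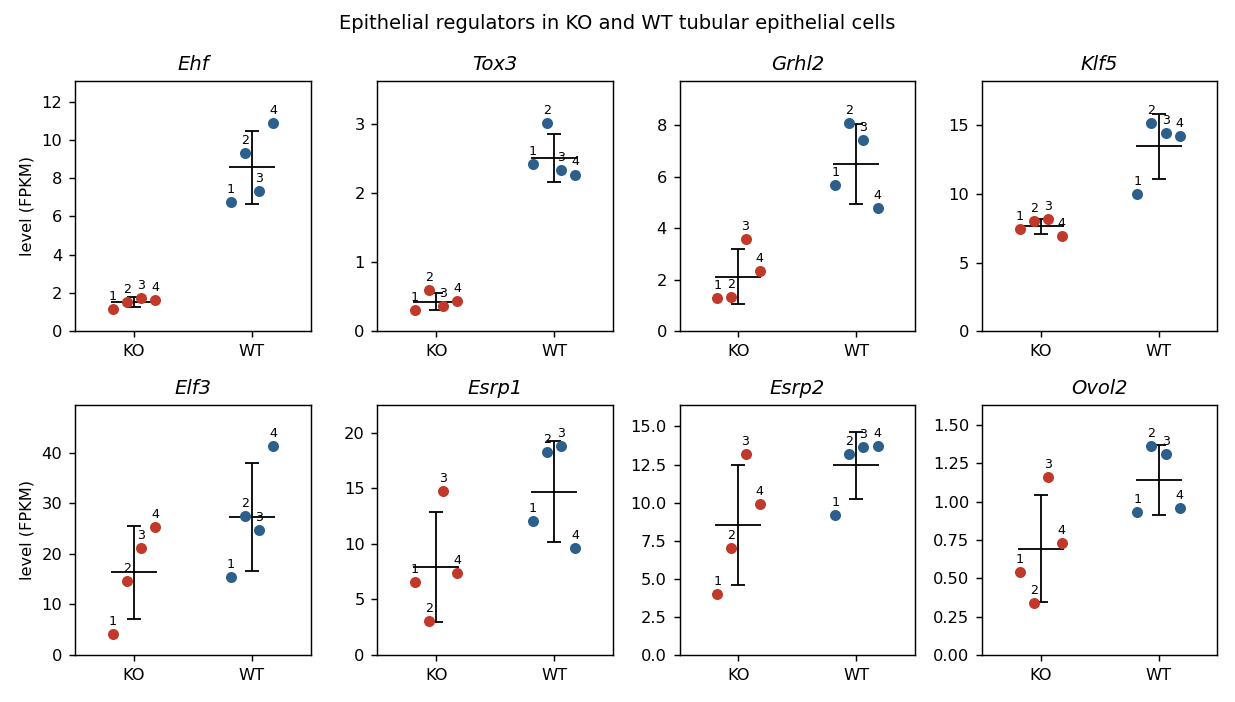
Level in FPKM (vertical axis, linear from 0) of the 8 measured regulators in KO (left, red) and WT (right, blue); each point is 1 library, numbered by replicate, and bars are mean ± SD (n = 4). Ehf, Tox3, Grhl2 and Klf5 show no overlap of the groups, while KO 3 reaches the WT range for Elf3, Esrp1, Esrp2 and Ovol2.

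Counted together, 8 of the 8 genes had lower KO means and 4 of 8 had no overlap of the groups, all lower in KO; over all genes 6.86% had no overlap with KO lower and 4.76% with KO higher. The median log2 difference of the 8 genes was -0.90, and that of all genes -0.06. In the limma fit over all genes 2 of the 8 (Ehf and Tox3) passed an adjusted p of 0.05, against 0.0778% of all genes; both were lower in KO, as were 0.0566% of all genes, and 0.0212% were called higher. In the authors' deposited table the log2 fold changes of Ehf and Tox3 are -2.38 and -2.47, and these are the only 2 of the 8 with an adjusted p below 0.05 there, against 0.375% of all genes. Since the genes were listed with this contrast in view, nothing is read from these counts. When 1 library was left out, the log2 differences stayed at -2.0 to -1.8 for Ehf and at -1.35 to -1.23 for Tox3. The limma calls did change. Without KO 1, KO 4, WT 1, WT 2 or WT 3, 0 of the 8 were called (0.00707% of all genes in each case). Without KO 3 it was 1 of the 8 (0.0212% of all genes), without WT 4 also 1 (0.0566%), and without KO 2 it was 4, namely Ehf, Tox3, Grhl2 and Klf5 (8.05%). Limma-voom on recovered reads called 2 of the 8 (0.0495% of all genes), a level filter 2 (0.0998%), a pseudocount of 0.1 called 1 (0.0212%), and KO without 3 and 4 called 1 (0.0990%). With sex as a covariate 4 were called (34.2% of all genes), and among male libraries alone 4 (44.4%). All WT libraries were male, so both settings set KO 3 and 4 against WT. The covariate cannot separate sex from other differences between KO 1 and 2 and KO 3 and 4. For 5 of the genes (Elf3, Grhl2, Ovol2, Esrp1 and Esrp2) 119 to 359 exonic bases overlap a gene on the opposite strand in GENCODE M21, and it is not stated whether counting used strand, so some of their reads could belong to those partners.

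RefSeq promoter windows (GRCm38.p6, 250 bases before to 50 after a transcript start, read on the gene's strand) were at hand for 3 of the 8 measured genes and are shown because they set a gene without overlap of the groups (Tox3) beside 2 with overlap (Elf3 and Ovol2). Capitals mark the E-box CACCTG or its reverse complement CAGGTG, the site read by Zeb and Snail repressors.
Tox3 (chr8:90348203-90348502, minus strand): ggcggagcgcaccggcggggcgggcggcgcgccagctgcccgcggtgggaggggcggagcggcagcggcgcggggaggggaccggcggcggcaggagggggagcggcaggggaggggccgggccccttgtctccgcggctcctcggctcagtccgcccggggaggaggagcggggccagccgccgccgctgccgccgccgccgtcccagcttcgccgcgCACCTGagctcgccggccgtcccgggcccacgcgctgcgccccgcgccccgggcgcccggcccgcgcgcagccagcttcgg
Elf3 (chr1:135258423-135258722, minus strand): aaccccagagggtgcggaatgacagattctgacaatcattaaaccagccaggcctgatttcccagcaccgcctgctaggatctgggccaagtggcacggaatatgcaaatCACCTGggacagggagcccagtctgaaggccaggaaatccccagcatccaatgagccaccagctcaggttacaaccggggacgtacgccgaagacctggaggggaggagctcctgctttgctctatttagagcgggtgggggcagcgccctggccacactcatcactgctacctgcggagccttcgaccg
Ovol2 (chr2:144331313-144331612, minus strand): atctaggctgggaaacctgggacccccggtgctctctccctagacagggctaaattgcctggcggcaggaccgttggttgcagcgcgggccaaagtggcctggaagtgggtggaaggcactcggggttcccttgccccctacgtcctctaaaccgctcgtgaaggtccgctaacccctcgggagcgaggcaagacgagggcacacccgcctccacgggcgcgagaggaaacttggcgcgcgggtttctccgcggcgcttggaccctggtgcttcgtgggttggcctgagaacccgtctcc
The Tox3 window holds 1 E-box, whose first base is at -31 from the start, and the Elf3 window holds 1 at -140; the Ovol2 window holds 0, and 20.2% of 32851 promoter windows of this length hold at least 1. The ETS core GGAA (or TTCC), the letters that Ehf and Elf3 are known to read, occurs 0 times in the Tox3 window, 4 times in that of Elf3 and 5 times in that of Ovol2, with a median of 3 over all windows. The Grainyhead-like motif AACCNGGTT occurs in none of the 3 windows (0 sites each) and in 0.271% of all windows. The Krüppel-like motif CACCC (or GGGTG) occurs 0 times in the Tox3 window and 2 times each in those of Elf3 and Ovol2, and 57.5% of all windows hold it. The Tox3 window is 85.3% G and C, that of Elf3 59.0% and that of Ovol2 65.7%. These are matches of letters, and the motifs other than AACCNGGTT are short and common.

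The 4 KO libraries were not alike across the list. Against the 4 WT libraries, KO 1 and 2 together were below every WT library for 8 of the 8 genes (12.7% of all genes), and KO 3 and 4 for 4 of the 8, namely Ehf, Tox3, Grhl2 and Klf5 (36.3% of all genes). Relative to the WT mean, Ehf was lower by log2 differences of -2.01 in KO 1 and 2 and -1.81 in KO 3 and 4, Tox3 by -1.27 and -1.32, and Klf5 by -0.71 and -0.75. Elf3 stood at -1.58 and -0.14, Esrp2 at -1.07 and -0.09, and Esrp1 at -1.46 and -0.41 in the same pairs. Ehf, Tox3 and Klf5 were thus nearly as low in one pair as in the other, and the remaining genes were lower in KO 1 and 2. The pairs also differ in sex and in mitochondrially encoded transcripts, as given above. Principal cell markers of the collecting duct (3 of 8 listed were measured, namely Scnn1b, Scnn1g and Hsd11b2; Aqp2 is not among the genes analysed here) summed to 5.44, 3.66, 21.4 and 16.4 FPKM in KO 1 to 4 and to 18.8 to 24.7 FPKM in WT. In KO 1 and 2 all 3 of these markers lay below every WT library, and in KO 3 and 4 together 0 of the 3 did. Scnn1g in KO 4, at 1.27 FPKM, was nevertheless below its lowest WT library, at 1.37 FPKM. Sex, mitochondrially encoded transcripts and these markers divide the same pairs of KO libraries and cannot be told apart here.

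**Figure D2:**
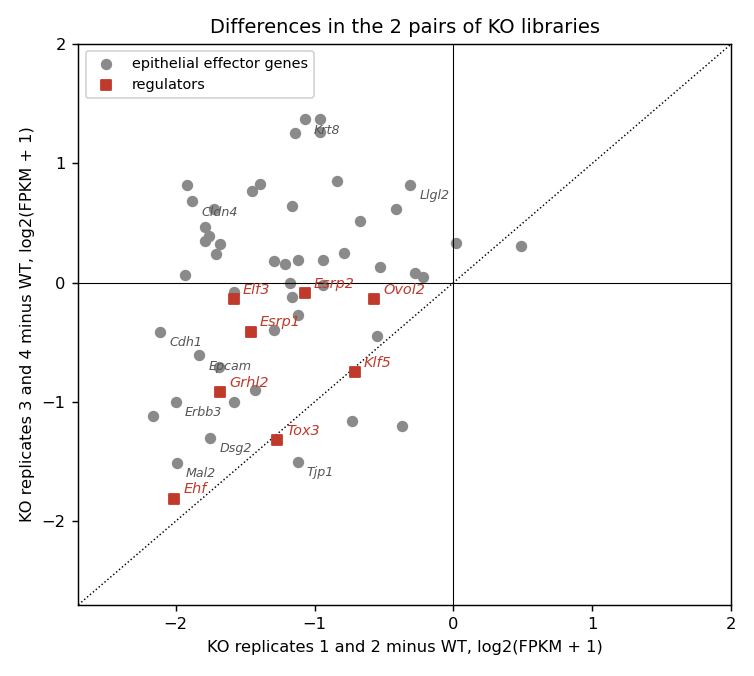
Difference from the WT mean on the log2(FPKM + 1) scale in KO 1 and 2 (horizontal) and in KO 3 and 4 (vertical) for the 8 regulators (red squares) and 49 epithelial effector genes (grey circles); the dotted line marks equal differences. Ehf, Tox3 and Klf5 lie near the line, and 28 of the 49 effector genes lie below 0 in KO 1 and 2 and above 0 in KO 3 and 4.

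Variation within the groups does not involve the KO against WT contrast and was described after taking off each group's mean, over 8 libraries, as Pearson r of log2(FPKM + 1) with no test. Of 28 pairs among the 8 genes 25 had r above 0, with a median of 0.34. Ovol2 and Esrp1 varied most alike (r 0.97), followed by Grhl2 with Ovol2 (0.95), Elf3 with Esrp2 (0.91) and Grhl2 with Esrp1 (0.89). Among 10986 genes with a mean FPKM of at least 1, 0.373% had an r with Esrp1 at least as high as that of Ovol2, and 0.801% an r with Grhl2 at least as high as that of Ovol2. Ehf went with Elf3 at an r of 0.79, which 1.57% of genes reached with Ehf and 9.89% with Elf3. It had 0.64 with Esrp2 and 0.56 with Klf5, and stood at 0.17 with Grhl2 and -0.01 with Esrp1. Tox3 had an r of at most 0.25 with any of the other 7, but its 19 to 36 reads per KO library leave wide counting error in r. The same holds for each r of Ovol2, which had 13 to 46 reads per KO library and 34 to 49 per WT library. KO 3 was the highest KO library for Grhl2 and Esrp1, and leaving it out was chosen after these values were seen. Without it Ovol2 with Esrp1 had an r of 0.94, Grhl2 with Ovol2 0.89, Grhl2 with Esrp1 0.78 and Ehf with Elf3 0.78. Elf3 with Esrp2 then had 0.96, whereas other pairs fell. Esrp2 went from 0.76 to 0.55 with Grhl2, from 0.69 to 0.41 with Ovol2 and from 0.51 to 0.09 with Esrp1. Ehf stood at -0.02 with Grhl2 and -0.3 with Esrp1, and the highest r of Tox3 became 0.42, with Grhl2. The points of each pair share their library, its depth and its cell makeup.

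**Figure D3:**
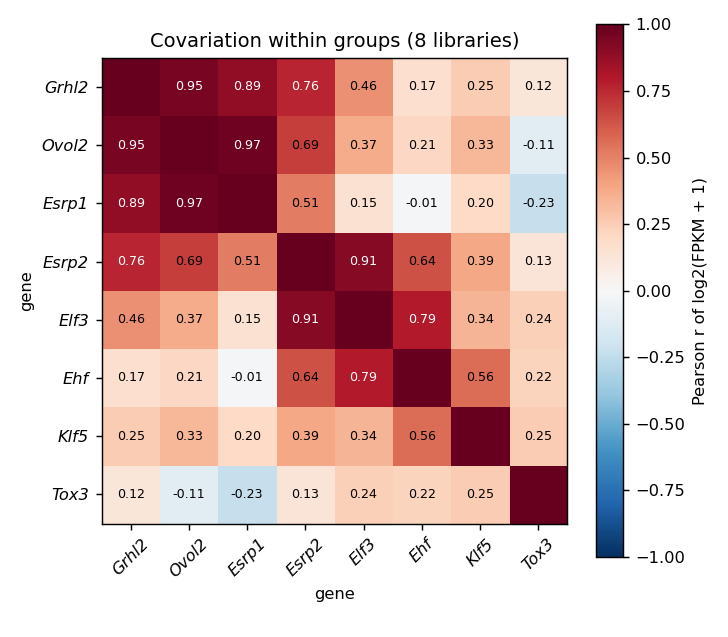
Pearson r of log2(FPKM + 1) between the 8 regulators over 8 libraries after each group's mean was taken off (colour and number, from -1 to 1). Grhl2, Ovol2 and Esrp1 form 1 block with r of 0.89 to 0.97, Elf3 goes with Esrp2 (0.91) and Ehf (0.79), and Tox3 has r of -0.23 to 0.25. Low read counts leave wide counting error in the r of Ovol2 and Tox3.

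The genes most like Ehf over the 8 libraries, without removing group means, were Atp8b1, a phospholipid flippase (r 0.990), Col27a1, a fibrillar collagen (0.978), Myof, a membrane-repair protein (0.974), Shank2, a scaffold protein (0.973), and Aldh2 itself (0.973), with Tox3 next at 0.972. These r values include the difference between the groups. Myof had 45.81 to 58.81 FPKM in KO and 85.72 to 101.84 FPKM in WT. With group means removed the list changed to Dusp2, a phosphatase of mitogen-activated kinases (r 0.988), Syne4, a nuclear-envelope protein (0.978), Muc1, an apical mucin (0.973), Cldn8, a claudin of the distal nephron and collecting duct (0.963), and Trpv6, an apical calcium channel (0.959). Muc1 had 0.16, 2.00, 3.77 and 2.96 FPKM in KO 1 to 4, and 3.31, 13.58, 7.92 and 42.92 FPKM in WT 1 to 4. Cldn8 had 0.05, 1.21, 1.61 and 1.22 FPKM in KO 1 to 4, and 3.24, 7.87, 5.81 and 16.99 FPKM in WT 1 to 4. Each was lowest in the first library of its group and highest in WT 4, as was Ehf. Without WT 4 the r of these 5 genes with Ehf was 0.93 to 0.98. The loop of Henle markers Cldn16 and Cldn19 were also highest in WT 4, with a sum of 0.777 to 2.76 FPKM in KO and of 2.75, 4.02, 5.63 and 20.5 FPKM in WT 1 to 4, and their part in the WT spread of Ehf was not tested.

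Genes of junctions, polarity, surface proteases, apical trafficking and keratins, many of them known targets of these regulators in other tissues, were next examined as 49 epithelial effector genes, all of them measured. None passed the limma fit over all genes or limma-voom on recovered reads (0 of 49 each), and 14 of 49 (28.6%) had an unadjusted p below 0.05, each with a lower KO mean, beside 11.6% of all genes with such a p and a lower KO mean and 7.58% with a higher one. Lower KO means were found for 40 of 49 (81.6%, beside 55.5% of all genes), with a median log2 difference of -0.56, against -0.06 for all genes. The groups did not overlap for 7 of 49, or 14.3%, with KO lower, beside 6.86% of all genes, and for 0 of 49 with KO higher, beside 4.76% of all genes. Without KO 2, 5 of the 49 passed (10.2%, beside 8.05% of all genes).

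The 6 effector genes of lowest p were Dsg2, Mal2, Tjp1, Dsp, Erbb3 and Tmem30b, with adjusted p values over all genes from 0.0636 (Dsg2 and Mal2) to 0.111 (Tmem30b) by limma. Mal2, a protein of apical transcytosis, had 21.17, 12.14, 26.13 and 19.89 FPKM in KO 1 to 4, and 42.67, 87.66, 78.24 and 68.09 FPKM in WT 1 to 4. Its highest KO library was thus well below its lowest WT library (log2 difference -1.75, SE 0.28). Dsg2, a desmosomal cadherin, averaged 4.59 ± 1.57 FPKM in KO and 14.9 ± 3.74 FPKM in WT, and Dsp, desmoplakin, 8.75 ± 3.25 FPKM in KO and 22.2 ± 4.15 FPKM in WT (SD, n = 4 each). Tjp1, the tight junction scaffold ZO-1, averaged 17.1 ± 6.17 FPKM in KO and 42.4 ± 3.06 FPKM in WT (SD, n = 4 each). Erbb3, a receptor of neuregulins, averaged 4.89 ± 2.42 FPKM in KO and 14.9 ± 3.59 FPKM in WT, and Tmem30b, a flippase chaperone, had 1.56 to 5.35 FPKM in KO and 5.73 to 16.04 FPKM in WT. E-cadherin (Cdh1), named here after its values were seen, had 41.31, 30.10, 155.82 and 87.81 FPKM in KO 1 to 4, and 125.43, 208.42, 209.78 and 107.82 FPKM in WT 1 to 4, with KO 3 inside the WT range.

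**Figure D4:**
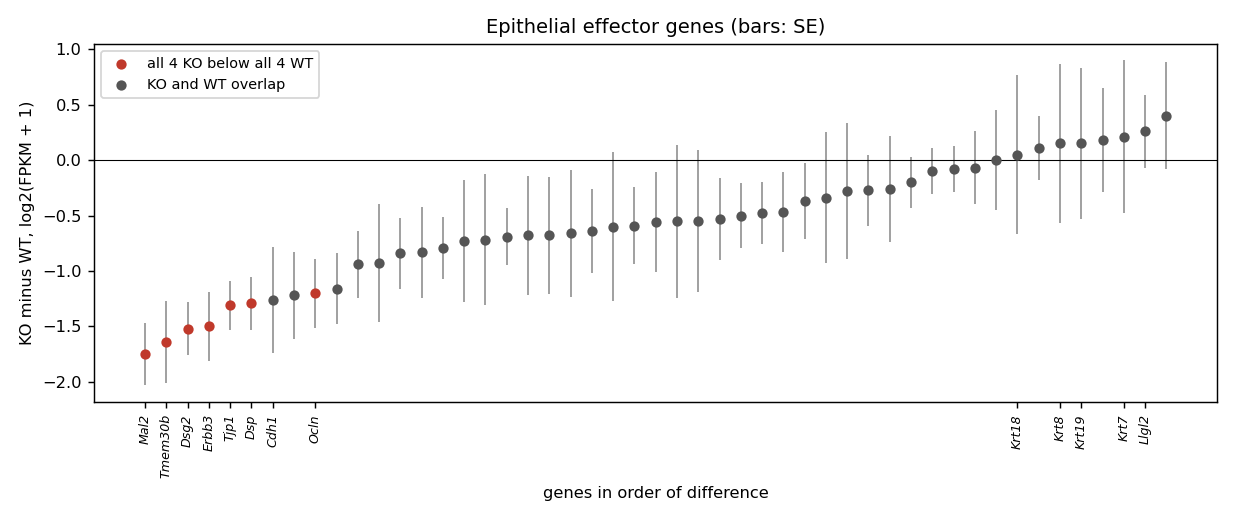
Difference of KO minus WT on the log2(FPKM + 1) scale (vertical axis) for the 49 epithelial effector genes, in order of size, with bars of 1 SE from the limma fit (n = 4 each) and names for those without overlap, E-cadherin, the keratins and Llgl2. The 7 genes without overlap of the groups (red) are among the 9 lowest, from Mal2 at -1.75 to Ocln at -1.20, and the keratins lie near 0.

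The effector genes divided the KO libraries. In KO 1 and 2 their median difference from WT was -1.18, with 36 of 49 below every WT library (73.5%, beside 12.7% of all genes) and 0 above (beside 12.6%). In KO 3 and 4 the median was 0.18, with 9 of 49 below every WT library (18.4%, beside 36.3% of all genes) and 6 above (12.2%, beside 24.9% of all genes). Their library medians relative to WT were -1.16, -1.56, 0.43 and -0.14 in KO 1 to 4 and -0.23, 0.23, 0.31 and -0.28 in WT 1 to 4. KO 3 thus lay above all WT libraries for the effector median, while its median for the 8 regulators was -0.46, below all WT libraries. The regulators were listed with this contrast known, and Elf3, Esrp1, Esrp2 and Ovol2 were within the WT range in KO 3. With each group's mean taken off, over the same 8 libraries, 34 of 49 effector genes had r above 0.8 with Grhl2, 35 with Ovol2 and 27 with Esrp1, or 69.4%, 71.4% and 55.1%, beside 10.6%, 8.75% and 8.16% of all ranked genes. With Esrp2 19 of 49 did (38.8%, beside 12.7%), with Elf3 5 (10.2%, beside 9.38%) and with Ehf 3 (6.12%, beside 1.43%). With Klf5 and Tox3 0 did, beside 0.264% and 0.391% of all ranked genes. As above, the r of Ovol2 and Tox3 carry wide counting error. The median r of the effector genes was 0.90 with Grhl2 and 0.18 with Ehf. Without KO 3 it was 0.81 with Grhl2 and -0.0 with Ehf.

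**Figure D5:**
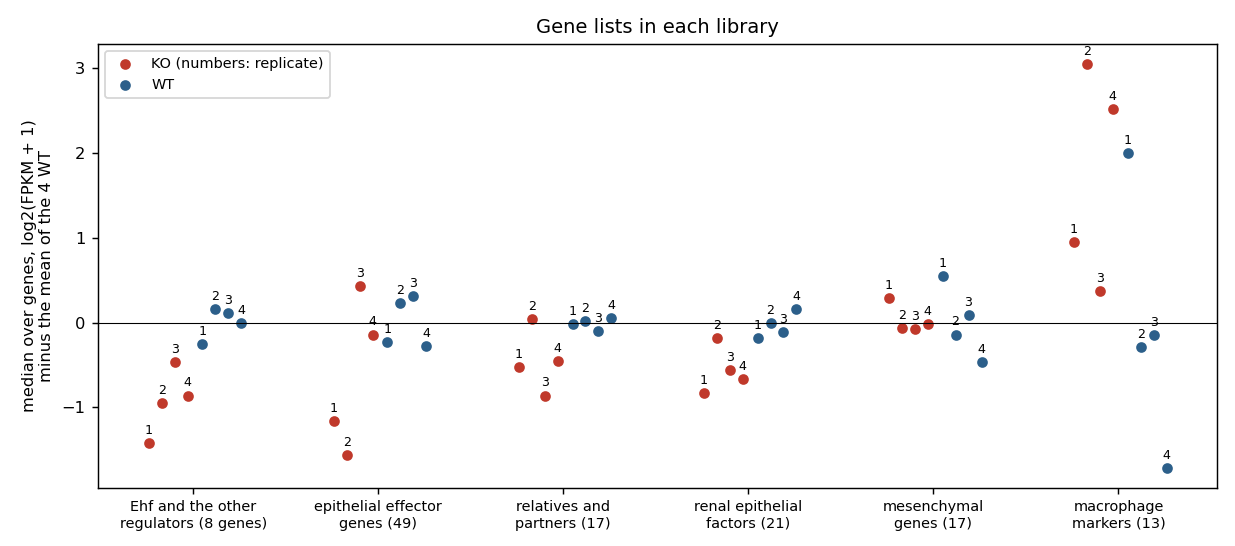
Median over the genes of each list of log2(FPKM + 1) minus the mean of the 4 WT libraries (vertical axis), for each KO (red) and WT (blue) library, numbered by replicate. The median of the 8 regulators, which were listed with this contrast known, is below that of all WT libraries in each KO library (-0.46 to -1.42). The median of the effector genes is at -1.16 and -1.56 in KO 1 and 2 and at 0.43 and -0.14 in KO 3 and 4.

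Relatives of the regulators and other splicing factors had lower KO means in 16 of 17 measured cases, or 94.1%, beside 55.5% of all genes (6 of the 23 listed, Elf5, Spdef, Ovol3, Tox, Tox2 and Qki, are not among the genes analysed here). Grhl3 is among the 16 and passes the level of 0.5 FPKM through WT alone, so its KO mean had to be the lower one. None passed limma or limma-voom (0 of 17 each), and 7 had an unadjusted p below 0.05, 6 of them with lower KO means (35.3%, beside 11.6% of all genes) and 1 with a higher one (5.88%, beside 7.58%). The median log2 difference was -0.37, and 2 of 17 (11.8%, beside 6.86% of all genes) had no overlap with KO lower. Klf3, a Krüppel-like repressor, had 8.59, 13.01, 5.36 and 7.09 FPKM in KO 1 to 4, and 15.39, 16.10, 15.26 and 18.98 FPKM in WT 1 to 4, and Elf1, a broadly expressed ETS factor, averaged 9.86 ± 4.55 FPKM in KO and 17.6 ± 1.10 FPKM in WT (SD, n = 4 each; adjusted p of 0.141 and 0.177 by limma). Klf6, a Krüppel-like factor induced by injury, averaged 46.7 ± 17.6 FPKM in KO and 76.5 ± 7.66 FPKM in WT (adjusted p = 0.189 by limma, n = 4 each). Grhl3, the remaining measured Grainyhead-like gene, had 0.35, 0.18, 0.76 and 0.45 FPKM in KO 1 to 4, and 0.75, 1.39, 1.92 and 0.29 FPKM in WT 1 to 4, with overlap of the groups. The list median of these relatives and splicing factors was lowest in KO 3, at -0.86 relative to WT, where the effector median was highest. Not every gene went with the median, and Grhl3, Klf6 and Tox4, for example, were not lowest in KO 3. Without KO 2, 2 of the 17 passed (11.8%, beside 8.05% of all genes).

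Transcription factors of the kidney tubule lineage gave 18 of 21 measured genes with lower KO means (85.7%, beside 55.5% of all genes; median log2 difference -0.50). An unadjusted p below 0.05 was found for 7 of them, each lower in KO (33.3%, beside 11.6% of all genes), and 0 passed limma or limma-voom. The groups did not overlap for 6 of 21, or 28.6%, with KO lower, beside 6.86% of all genes. Hnf4g, Sim1, Esrrg and Ppargc1a pass the level of 0.5 FPKM through WT alone, so their KO means had to be the lower ones. They count among the 18, and Sim1 also among the 7 and the 6. Sim2 and Sim1, single-minded factors, averaged 1.45 ± 0.606 and 0.412 ± 0.168 FPKM in KO, and 6.39 ± 2.20 and 1.43 ± 0.261 FPKM in WT. Tfap2b, an AP-2 factor of the distal nephron, had 1.25, 1.13, 2.26 and 1.14 FPKM in KO 1 to 4, and 3.72, 5.89, 6.04 and 6.01 FPKM in WT 1 to 4 (n = 4 each; adjusted p of 0.0636, 0.0996 and 0.0636 by limma for Sim2, Sim1 and Tfap2b). Without KO 2, 4 of the 21 passed (19%, beside 8.05% of all genes).

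Genes that oppose the epithelial circuit had no common direction in their group means. Of 17 measured mesenchymal regulators and effectors 9 had lower KO means (52.9%, beside 55.5% of all genes) and 8 higher ones (median log2 difference -0.10). Twist2 is among the 8 and passes the level of 0.5 FPKM through KO alone. There were 2 at an unadjusted p below 0.05 (Sparc and Vim, higher in KO; 11.8%, beside 7.58% of all genes), 0 past limma or limma-voom, and 0 without overlap of the groups in either direction. In KO 1 and 2, 4 of 17 lay above every WT library (23.5%, beside 12.6% of all genes). In the same pair 1 lay below (5.88%, beside 12.7%). In KO 3 and 4, 1 lay above (5.88%, beside 24.9%) and 2 below (11.8%, beside 36.3%). Zeb1, a repressor of epithelial genes, had 4.94, 4.80, 0.75 and 1.74 FPKM in KO 1 to 4, and 4.03, 2.07, 1.40 and 2.74 FPKM in WT 1 to 4; it is named here after its values were seen. KO 3, the library with the highest effector median, had the lowest Zeb1. It also had the lowest Zeb2 (0.40 FPKM) but the highest Twist1 (2.49 FPKM) of the 8 libraries. No relation of these genes to the effector genes was tested. Sparc, a matricellular protein, averaged 740 ± 274 FPKM in KO and 336 ± 193 FPKM in WT, Vim, vimentin, 321 ± 172 FPKM in KO and 140 ± 80.6 FPKM in WT, and Tcf4, a basic helix-loop-helix factor, 1.00 ± 0.751 FPKM in KO and 1.77 ± 0.470 FPKM in WT (SD, n = 4 each). Macrophages also express Vim, and their markers had a median log2 difference of 1.79 over 13 genes, with libraries of the groups overlapping for each of the 13; their part in the Vim values was not tested.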

How the data were processed

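The table gives 14145 genes in 4 KO and 4 WT libraries. The deposited values carry no unit in the header and were read as FPKM made by the authors, since they return whole reads when multiplied by gene length; GRCm38, STAR 2.4.1d, FastQC and DESeq2 are listed in the submitters' processing notes. The sources used here do not name the counter, its annotation, its strand setting or any row filter. The deposited log2 fold change, p-value and adjusted p-value per gene are the authors' own comparison. Columns without a sample numbered 0. Reads were recovered as FPKM times exon-union length (GENCODE M21, 14129 genes) over 1 step per library; 95.0% to 95.6% of values of 1 to 200 reads came out whole to within 0.05 read, and 8.9% to 11% did so when the step was set wrong. Counting error is that of these reads only.

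log2(FPKM + 1) was fitted over all genes and 8 libraries with limma 3.58.1 (R 4.3.3), variance trend, genotype only, and Benjamini-Hochberg adjustment at 0.05, after a check on simulated data. Python 3.11.15, pandas 2.3.3, numpy 2.4.6 and matplotlib 3.10.9 were used. The members and lists were chosen with earlier results of these data known. Named genes besides the members are Aldh2, the 6 effector genes and 3 genes of each other list with the lowest p, and for Ehf the 5 genes of highest r with and without group means; other genes named were chosen after their values were seen. Marker lists were read as levels, without tests. Alternatives were other pseudocounts, a level filter, median-ratio scaling, no variance trend, limma-voom, a replicate block, sex as a covariate, male libraries alone, KO without 3 and 4, and leaving out each library. Correlations without KO 3 or WT 4, and counts for KO 1 and 2 apart, were added after the data were seen.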

Additional observations from a re-analysis of the deposited data

Results flagged for a closer look

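Single libraries lay far from the other 3 of their group in 5 of 48 groups examined among the regulators, Aldh2 and the named genes. Chance would flag about 1 group in 20 if the groups were independent. The groups share the same 8 libraries, and many of the named genes were picked for a low p. The 5 therefore cannot be judged against that rate. WT 1 was the lowest WT library for Esrp2 (9.18 FPKM), Klf6 (65.13 FPKM) and Tfap2b (3.72 FPKM). KO 3 was the highest KO library for Tfap2b (2.26 FPKM), and KO 1 the highest KO library for Sim1 (0.66 FPKM). WT 1 is also the WT library with the highest macrophage and fibroblast markers, and the part of these in its values was not tested.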

How the results depend on the processing

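All 8 regulators kept a lower KO level under each of the 18 alternatives (17 for Ovol2, which the level filter removes), with log2 differences of -2.49 to -1.80 for Ehf, -2.57 to -1.23 for Tox3, -1.72 to -0.92 for Grhl2 and -0.86 to -0.66 for Klf5. The other 4 came close to 0 under some settings, with -1.58 to -0.14 for Elf3, -0.82 to -0.14 for Ovol2, -1.07 to -0.09 for Esrp2 and -1.46 to -0.41 for Esrp1. The level filter, no variance trend and the replicate block cannot change these differences. With all WT libraries male, the sex covariate gives the same differences as the male libraries alone. The 18 alternatives are thus not 18 separate checks of direction. The median over the 8 was -0.90, with -1.37 without KO 3 and 4 and -0.58 with the sex covariate or among the male libraries alone. Counts of calls depended on the setting. Over all genes 11 passed, with 3 at a pseudocount of 0.1, 7 by limma-voom, 4838 with sex as a covariate, 6275 among the male libraries alone, and 1 to 1139 when 1 library was left out. Among the 8 regulators 2 passed, with 1 at a pseudocount of 0.1, 1 without KO 3 and 4, 4 with the sex covariate and 4 among the male libraries (50% beside 44.4% of all genes), and 0 to 4 when 1 library was left out. The sex covariate and the male libraries called 11 and 11 of 49 effector genes and 7 and 10 of 17 relatives. They called 1 and 2 of 17 mesenchymal genes, and 7 and 7 of 21 renal factors. Over all genes these settings called 34.2% and 44.4%, above the share in each of these lists except the relatives. With genotype alone and all libraries 0 passed in these lists. Leaving out 1 library called 0 to 5 effector genes, 0 to 2 relatives, 0 mesenchymal genes and 0 to 4 renal factors. The cause of these shifts was not tested. Same-numbered libraries share only a number (r of their deviations from -0.202 to 0.56). With the replicate block 1 gene passed over all genes and 0 of the 8 regulators. Precision at low levels is limited by depth, with 13 to 49 reads per library for Ovol2.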

Other observations

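Simple-epithelium keratins, chosen after their values were seen, spread more within KO than between the groups. Krt8 had 699.46, 266.88, 3553.02 and 1547.02 FPKM in KO 1 to 4, and 891.37, 1112.87, 1459.87 and 469.01 FPKM in WT 1 to 4. Krt7 had 66.26, 21.39, 317.26 and 119.25 FPKM in KO 1 to 4, and 59.22, 93.99, 121.01 and 45.45 FPKM in WT 1 to 4. KO 3, the highest of the 8 libraries for both keratins, had 1.74 FPKM of Ehf, below every WT library, and the ratio of Ehf to Krt8 was 0.00049 in KO 3 and 0.00107 to 0.00578 in the other KO libraries, against 0.00501 to 0.0232 in WT. Llgl2, a polarity protein, had 49.35, 62.77, 146.55 and 102.50 FPKM in KO 1 to 4, and 54.28, 78.09, 84.72 and 63.40 FPKM in WT 1 to 4, again with KO 3 highest.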
